A study of Mus musculus with 10 samples.

Results

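Col4a1 and Col4a2 encode the α1 and α2 chains of collagen IV, the network-forming collagen of basement membranes. The pair was selected on measured values, as the 2 genes with the highest log2 fold changes over wild type of those listed for Mbd3ab KO embryonic stem cells. It was then followed by gene symbol through every deposited table. These were 2 genes of the 8791 that the 4 tables list between them. Total RNA, less its ribosomal RNA, was sequenced from 5 groups of E14 mouse embryonic stem cells, a line grown here on gelatin, with 2 libraries in each group. Of the mutant lines, all made with CRISPR/Cas9, Mbd3ab KO carried a mutation in exon 2 of Mbd3 and lacked isoforms a and b, Mbd3c KO was mutated in intron 2 and lacked isoform c, Mbd3abc KO was mutated in exon 5 and lacked all 3 isoforms, and Mbd3cΔN-ab KO was mutated in exon 2, lacked a and b and carried the ΔN form of c. E14 WT, with the wild type gene, was the shared comparison. Mbd3 is the methyl-CpG binding domain protein that holds together the NuRD complex, a repressor with both a chromatin remodeller and histone deacetylases. The labels call the paired libraries of each group biological replicates, but do not say if those of a mutant stem from 1 clone or from 2.

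Collagen IV chains assemble inside the endoplasmic reticulum into triple helices, and the most widespread helix joins α1 chains with an α2 chain. Secreted helices bind each other at both ends and form a sheet to which laminin, nidogen and perlecan attach. Both genes are read from a shared promoter, in opposite directions, and collagen IV is among the earliest matrix proteins of the mouse embryo. The parietal and primitive endoderm are its richest early sources.

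In the mm10 coordinates of the deposited tables Col4a1 (NM_009931) lay on the minus strand at chr8:11198423-11312826 and Col4a2 (NM_009932) on the plus strand at chr8:11312829-11449287. Only 2 bases separated the 2 start sites, and both genes together spanned 250865 bases. The counted transcripts measured 6561 bases for Col4a1 and 6376 bases for Col4a2, and GENCODE M21 gives them 52 and 48 exons. GENCODE places the first exon of Col4a1 at chr8:11312516-11312826 and that of Col4a2 at chr8:11312805-11313114, so the exons overlap on opposite strands. Reads were counted by strand, per the file headers.

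The promoter windows of RefSeq (build GRCm38.p6, 250 bases before to 50 after each gene start) overlapped by 78 bases. GC content was 74.0% in the Col4a1 window and 73.7% in the Col4a2 window, against a median of 52.7% over 32851 mouse windows. The windows held 37 and 33 CpG dinucleotides, more than in 94.4% and 91.4% of all windows, where the median was 7. Both strands were searched for 3 promoter motifs. The first was the CCAAT box, with the letters CCAAT, which was found once in each window and in 37.4% of all windows. The second was the GC box, with the letters GGGCGG. It was found once in the Col4a1 window and at 3 places in the Col4a2 window, and 35.7% of all windows held it at least once, 10.7% at least 3 times. The third, the TATA box with the letters TATAAA, was in neither window and in 13.6% of all. The 4 stretches of 30 bases that hold these matches are shown because they hold the matches, with each match in capitals. The last of them, at chr8:11312800-11312829, holds the start sites that the tables give for both genes, and its GGGCGG was the match that both windows shared.
Col4a1 window, minus strand, chr8:11312955-11312984: gtgcttgcccgggATTGGcgagccaagggg
Col4a2 window, plus strand, chr8:11312601-11312630: gtggcgcgcccgGGGCGGcaggggaccagc
Col4a2 window, plus strand, chr8:11312752-11312781: gcgcgCCGCCCgaggagctccCCAATttgt
Both windows, plus strand, chr8:11312800-11312829: tcggcagtgcgcGGGCGGcgtctccaaggg

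The tables list only genes the authors tested and, with few exceptions, called at an adjusted p under 0.05, so a gene that a table does not list has no value in it. Total reads of the libraries used lay between 0.71 and 1.59 times those of the first E14 WT library, and absolute totals are unknown. Mbd3 itself had 506 and 638 normalized reads in Mbd3ab KO libraries against 1523 and 1468 in E14 WT libraries. In Mbd3abc KO it had 108 and 158 against 1775 and 1689, and in Mbd3cΔN-ab KO 300 and 292 against 1685 and 1614. Reads over the whole gene do not separate the isoforms.

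In Mbd3ab KO both chains were far above wild type. Col4a1 had 1700 and 480 reads in the Mbd3ab KO libraries, against 85 and 115 reads in the E14 WT libraries. Divided by the authors' size factors, these were 1388 and 723 normalized reads in Mbd3ab KO and 93.9 and 81.5 in E14 WT. The lower mutant library was thus 7.70-fold above the higher wild type library, while the 2 mutant libraries differed 1.92-fold from each other. Col4a2 had 627 and 240 reads in Mbd3ab KO against 41 and 88 reads in E14 WT, or 512 and 361 normalized reads against 45.3 and 62.4. Its groups did not overlap either, with the lower mutant library 5.79-fold above the higher wild type one. Group means were 1055 ± 471 normalized reads in Mbd3ab KO and 87.7 ± 8.74 in E14 WT for Col4a1 (SD, n = 2 each), a ratio of 12.04. For Col4a2 they were 437 ± 107 in Mbd3ab KO and 53.8 ± 12.1 in E14 WT, a ratio of 8.11. DESeq2's log2 fold changes, shrunken by that tool, stood in the authors' deposited table at 3.01 ± 0.31 (SE) for Col4a1 and 2.60 ± 0.29 for Col4a2. They had ranks 1 and 2 of the 442 called genes, and Ldoc1 came next at 2.35 ± 0.41. Refits of the 443 listed genes were adjusted as over all 13201 genes tested. With edgeR and with limma they called 0 of the 443, though all 443 had an unadjusted p under 0.05 by edgeR. Both chains had an adjusted p between 0.0673 and 0.0796 in these refits. By edgeR the unadjusted p was 3.2e-05 for Col4a1 and 3.1e-05 for Col4a2. A refit with DESeq2 called 239. Called genes were 3.35% of the 13201 tested, 2.05% called higher and 1.3% called lower. Because this contrast chose the pair, its values are a description. In RNA from bulk cultures, more cells that express a gene and more RNA per cell cannot be told apart.

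In Mbd3abc KO both chains rose. Col4a1 had 2455 and 1338 reads in the Mbd3abc KO libraries, and Col4a2 had 1169 and 571. On the normalized scale of that table Col4a1 stood at 2373 and 1276 in Mbd3abc KO against 109 and 93.8 in E14 WT. Col4a2 stood at 1130 and 545 normalized reads in Mbd3abc KO against 52.8 and 71.8 in E14 WT. In both genes the first mutant library was the higher, by 1.86-fold and 2.07-fold, and the lower mutant library was still 11.7-fold and 7.59-fold above the higher wild type one. Means were 1825 ± 775 normalized reads in Mbd3abc KO and 102 ± 11.0 in E14 WT for Col4a1 (SD, n = 2 each), an 18.0-fold rise. For Col4a2 they were 837 ± 414 and 62.3 ± 13.4, a 13.4-fold rise. The authors' deposited table gives DESeq2 log2 fold changes of 3.88 ± 0.36 (SE; adjusted p = 4.83e-26) for Col4a1 and 3.38 ± 0.41 (adjusted p = 3.91e-15) for Col4a2. In this line 52.1% of 15622 genes tested were called, 27.1% higher and 24.9% lower, so a call by itself was common. The size was less so, at ranks 77 and 156 of 8132 called genes, and ranks 27 and 49 among those at or above the median level.

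In Mbd3cΔN-ab KO the rise was about as large on average but far less even. Col4a1 had 2159 and 815 reads in the Mbd3cΔN-ab KO libraries, and Col4a2 had 966 and 309. Normalized reads of Col4a1 were 2598 and 690 in Mbd3cΔN-ab KO against 104 and 89.6 in E14 WT. Those of Col4a2 were 1162 and 262 in Mbd3cΔN-ab KO against 50.1 and 68.6 in E14 WT. The first library of this line exceeded the second 3.76-fold for Col4a1 and 4.44-fold for Col4a2. The second was nevertheless 6.65-fold and 3.82-fold above the higher wild type library. Means were 1644 ± 1349 normalized reads in Mbd3cΔN-ab KO and 96.7 ± 10.04 in E14 WT for Col4a1 (SD, n = 2 each), 17.0-fold higher in the mutant. For Col4a2 they were 712 ± 637 and 59.3 ± 13.1, 11.998-fold higher. The DESeq2 log2 fold changes in the authors' deposited table were 3.06 ± 0.46 (SE; adjusted p = 6.88e-10) and 2.50 ± 0.49 (adjusted p = 2.84e-06), at ranks 43 and 121 of 5989 called genes. Called genes made up 41.5% of 14429 tested, with 21.1% higher and 20.4% lower. Both calls were lost in DESeq2 refits that left out 1 wild type library, where only the uneven mutant libraries give the spread. These refits shrink the log2 fold change. For Col4a1 it was 1.65 without the first E14 WT library and 1.48 without the second. For Col4a2 the same refits gave 1.25 and 1.27. With every library kept, the DESeq2 refit gave 2.81 for Col4a1 and 2.27 for Col4a2. The unshrunken log2 ratios of the group means were 4.09 and 3.58. Leaving out a mutant library kept both calls, with 2.67 and 1.88 without the first Mbd3cΔN-ab KO library and 4.63 and 4.07 without the second, where a group with 1 library is taken to vary like its counterpart. The 3 comparisons share the same 2 wild type libraries. The Mbd3c KO table, with 38 called genes or 0.353% of 10761 tested (0.316% higher and 0.0372% lower), listed neither chain, so the pair has no value for that line.

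**Figure D1:**
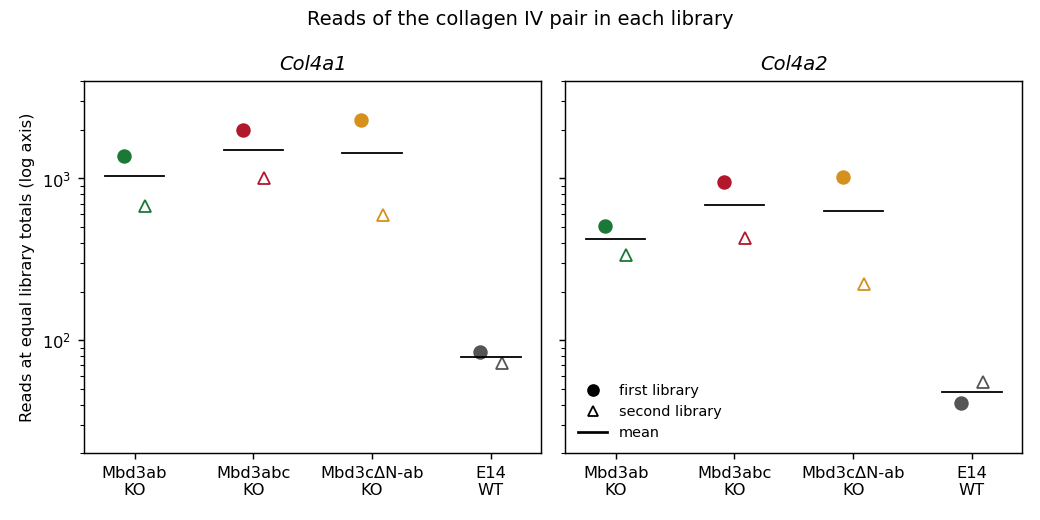
Reads of Col4a1 (left) and Col4a2 (right) in each library, scaled to the total of the first E14 WT library, on a log axis. Filled circles are first libraries, open triangles second libraries and bars the mean of 2. All 6 mutant libraries lie above both wild type libraries, and the 3 mutant groups overlap.

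Set on 1 scale, as reads at the total of the first E14 WT library, Col4a1 averaged 1030 ± 500 in Mbd3ab KO, 1497 ± 698 in Mbd3abc KO, 1444 ± 1205 in Mbd3cΔN-ab KO and 78.6 ± 9.06 in E14 WT (SD, n = 2 each). Col4a2 averaged 424 ± 122, 688 ± 367 and 626 ± 568 in the same mutants and 48.1 ± 10.1 in E14 WT. For both chains the order of the means was Mbd3abc KO, Mbd3cΔN-ab KO, Mbd3ab KO and E14 WT. Neighbours among the mutants did not differ beyond their spread, since the highest and the lowest mutant library of both genes came from the same line, Mbd3cΔN-ab KO. The plot of reads by library shows this overlap.

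Whether the full loss of Mbd3 and the ΔN form of isoform c left the pair at different levels was tested directly, without the wild type libraries. Reads of the 5413 transcripts listed in both tables were fitted with edgeR's quasi-likelihood test. Col4a1 had a log2 fold change of 0.05 ± 0.62 (SE) in Mbd3abc KO over Mbd3cΔN-ab KO, with a 95% interval of -1.45 to 1.55 and a Benjamini-Hochberg adjusted p of 0.968. For Col4a2 edgeR gave 0.13 ± 0.69, with an interval of -1.54 to 1.81 and an adjusted p of 0.914. Differences inside these intervals, in either direction, were not detectable with 2 libraries a line. The sign turned without the first Mbd3abc KO library (-0.53 and -0.55) and without the second Mbd3cΔN-ab KO library (-0.64 and -0.60). In this contrast 10 genes were called, 0.185% of those fitted. Genes listed against wild type for only 1 of the lines could not be fitted, so this share does not measure how alike the lines are.

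Of the reads on either gene, Col4a1 took 73.1% and 66.7% in Mbd3ab KO, 67.7% and 70.1% in Mbd3abc KO, 69.1% and 72.5% in Mbd3cΔN-ab KO, and 67.5% and 56.7% in E14 WT. The second E14 WT library had the lowest share, with an exact 95% interval of 49.5% to 63.6%. That interval overlapped the interval of the second Mbd3ab KO library (63.1% to 70.1%) and that of the first E14 WT library (58.5% to 75.5%). It did not overlap those of the other 5 mutant libraries, whose lower ends lay between 66.2% and 71.2%. These intervals cover counting error only. Per kilobase of transcript, Col4a1 had 2.63 and 1.94 times the reads of Col4a2 in Mbd3ab KO, 2.04 and 2.28 times in Mbd3abc KO, 2.17 and 2.56 times in Mbd3cΔN-ab KO, and 2.01 and 1.27 times in E14 WT. The fold change of Col4a1 was the larger of the 2 in all 3 mutants. With 2 libraries against 2, no permutation test of this ratio can pass 0.05.

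**Figure D2:**
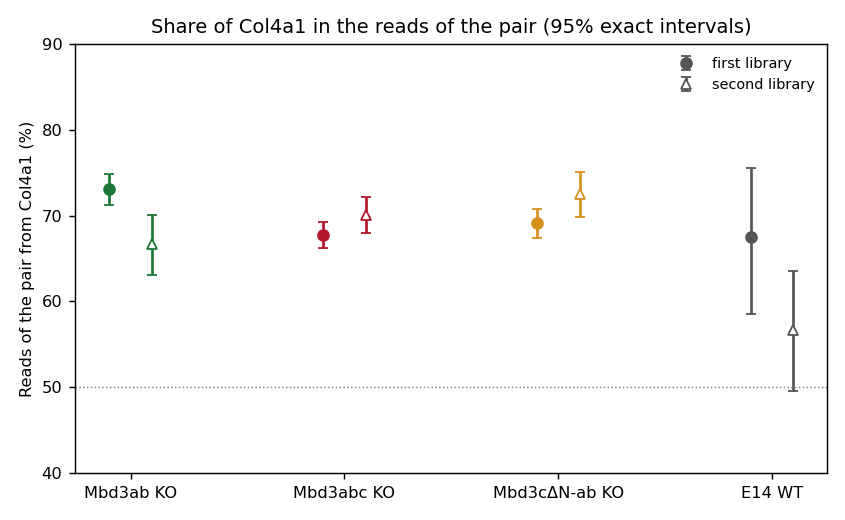
Share of the reads of the pair that came from Col4a1, in percent, for each library, with exact 95% intervals for counting error. The mutant libraries lie between 66.7% and 73.1%, and the second E14 WT library lies at 56.7% with a wide interval from few reads.

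Likeness between the patterns of genes was described by the Euclidean distance between log2 ratios to the wild type mean over the 6 mutant libraries, among 113 genes listed in the 3 tables at or above the median level of each. The distance uses the Mbd3ab KO values that chose the pair and 1 wild type mean for all 6 libraries, so the closeness of the 2 chains is in part fixed by that choice. The 2 chains lay at a distance of 1.31 from each other, nearer than any other of the 113 genes lay to either. After it came the germ cell transcription factor gene Sohlh2 at 3.30 from Col4a1 and 2.21 from Col4a2, and then the actin-binding gene Ablim1 at 3.36 and 2.25. The phosphatase subunit gene Ppp2r2c followed at 3.64 and 2.55, and the glutathione peroxidase gene Gpx2 at 4.36 and 3.24. These 4 genes lie on chromosomes 3, 19, 5 and 12. Sohlh2 had log2 ratios of 2.25 and 2.05 in the Mbd3ab KO libraries, 3.04 and 2.80 in Mbd3abc KO and 2.87 and 2.19 in Mbd3cΔN-ab KO. Col4a1 had 3.98 and 3.04, 4.55 and 3.65, and 4.75 and 2.83 in the same libraries.

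Fold changes in 2 of the mutants followed the GC content of the transcript, and the pair stood against that trend. In Mbd3abc KO 99.0% of called genes in the lowest of 20 GC bins were higher than wild type, against 7.90% in the highest bin. In Mbd3cΔN-ab KO these shares were 99.3% and 4.03%, and in Mbd3ab KO, where no such fall was seen, 59.1% and 72.7%. The Col4a1 transcript has a GC content of 57.7% and that of Col4a2 60.6%. Among the other called genes in the bin of Col4a1, Mbd3abc KO had 46 of 404 higher than wild type and Mbd3cΔN-ab KO had 30 of 298. In the bin of Col4a2 the counts were 31 of 405 and 14 of 298. No other gene of these bins had a larger log2 fold change than the member in Mbd3abc KO. In Mbd3cΔN-ab KO 1 gene, in the bin of Col4a2, did. Less the median of the called genes of its bin, the deposited log2 fold change was 4.90 for Col4a1 and 4.64 for Col4a2 in Mbd3abc KO. In Mbd3cΔN-ab KO it was 3.82 and 3.37. Genes not called are missing from these medians.

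**Figure D3:**
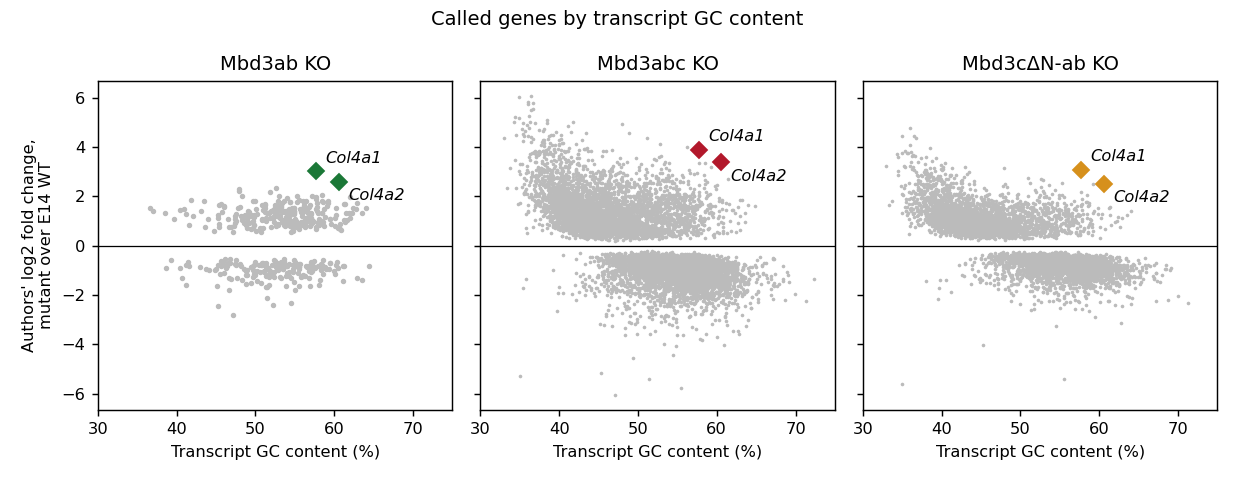
The authors' DESeq2 log2 fold change, mutant over E14 WT, against transcript GC content in percent for all called genes (grey) in Mbd3ab KO, Mbd3abc KO and Mbd3cΔN-ab KO, with the pair as coloured diamonds. In the right and middle panels most GC-rich genes lie below 0, while the pair, at 57.7% and 60.6% GC, lies at 2.50 to 3.88.

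Listed neighbours of the pair moved in both directions. GENCODE annotates 12 other protein-coding genes within 1 Mb of the pair, of which 4 were listed in any table. In Mbd3abc KO the insulin receptor substrate gene Irs2 fell, with a deposited DESeq2 log2 fold change of -0.98, and 1700016D06Rik rose by 1.71. In Mbd3cΔN-ab KO the mitochondrial cysteinyl-tRNA synthetase gene Cars2 and the guanine exchange factor gene Arhgef7 fell, at -0.71 and -0.38 in the authors' deposited table. The Mbd3ab KO table listed no gene within 1 Mb but the pair. Within 10 Mb, 33 other genes were called in Mbd3abc KO, 20 higher and 13 lower, and 25 in Mbd3cΔN-ab KO, with 10 higher and 15 lower. Over all genes tested, 52.1% and 41.5% were called in these lines. The number tested within 10 Mb is not known, so no called share can be given for this stretch. The zinc finger gene Zfp958, at -6699.7 kb from the pair, had the highest deposited log2 fold change of these other called genes in both lines, 3.82 in Mbd3abc KO and 2.90 in Mbd3cΔN-ab KO. Chromosome 8 as a whole moved differently in the 2 lines. Of its 338 called genes 60.4% were higher in Mbd3abc KO, against 51.8% on other chromosomes. The median log2 fold change was 0.77 against 0.44 on other chromosomes. In Mbd3cΔN-ab KO 35.4% of 322 were higher, against 51.8% elsewhere, with a median of -0.56 against 0.42. The pair was high in both.

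**Figure D4:**
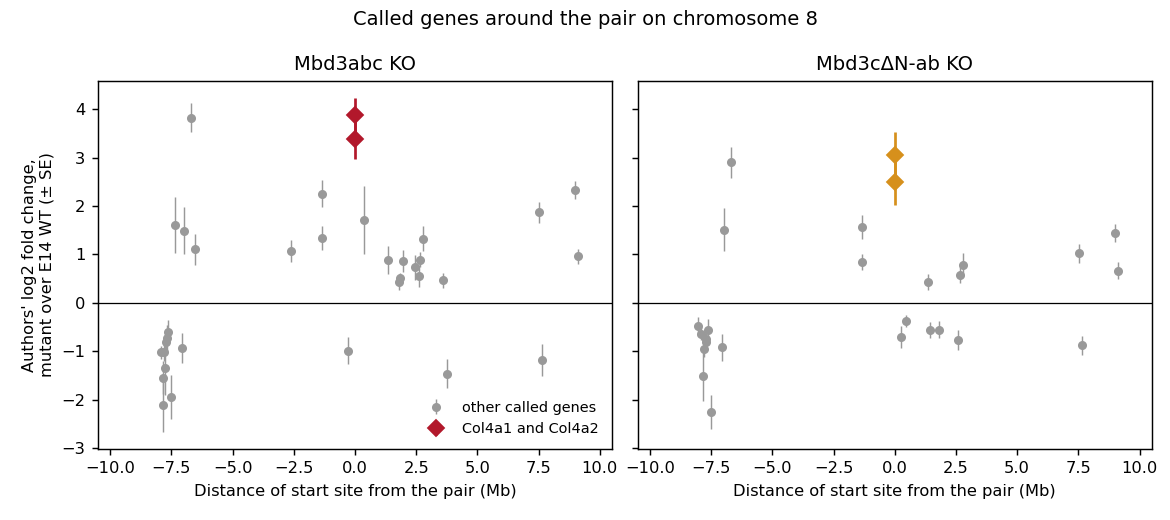
The authors' DESeq2 log2 fold change, mutant over E14 WT, with its SE, of called genes within 10 Mb of the pair, against the distance of their start site from the pair in Mb. Grey circles are other called genes and coloured diamonds Col4a1 and Col4a2, which lie above all called genes within 5 Mb in both lines.

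Genes of other basement membrane proteins moved in both directions. Of 29 such genes, 16 were called in Mbd3abc KO (55.2% of the list, against 52.1% of all genes tested), 4 higher and 12 lower, with a median log2 fold change of -0.75 against 0.46 over all called genes. In Mbd3cΔN-ab KO 15 were called (51.7%, against 41.5%), 5 higher and 10 lower, with a median of -0.69 against 0.37. In Mbd3ab KO 6 were called (20.7%, against 3.35%), 3 higher and 3 lower. Of all called genes 52.1% were higher in Mbd3abc KO, 50.9% in Mbd3cΔN-ab KO and 61.3% in Mbd3ab KO. Laminin-111, the first laminin of the embryo, is made of the chains of Lama1, Lamb1 and Lamc1, and all 3 genes fell in both lines. Lama1 had 821 and 1062 normalized reads in Mbd3abc KO against 3580 and 3125 in E14 WT, 3.56-fold lower, and 765 and 1359 in Mbd3cΔN-ab KO against 3398 and 2987. Lamb1 had 1427 and 1089 normalized reads in Mbd3abc KO against 3241 and 2954 in E14 WT, 2.46-fold lower. Lamc1 was 1.81-fold lower in Mbd3abc KO and 1.67-fold lower in Mbd3cΔN-ab KO. In both lines the laminin-111 genes and the collagen IV pair thus moved in opposite directions. Lamb1 also fell in Mbd3ab KO, 1.57-fold, with 1759 and 1656 normalized reads against 2781 and 2567 in E14 WT. The authors' DESeq2 adjusted p for Lama1 was 1.54e-17 in Mbd3abc KO and 8.72e-06 in Mbd3cΔN-ab KO.

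Several other genes of the 29 were called. Hspg2, which encodes the heparan sulfate proteoglycan perlecan, had 7097 and 4582 normalized reads in Mbd3abc KO against 10512 and 10455 in E14 WT, 1.80-fold lower, and in Mbd3cΔN-ab KO it was 1.87-fold lower. Agrn, which encodes the proteoglycan agrin, was 1.65-fold and 1.33-fold lower in these lines, and Col18a1, whose collagen carries heparan sulfate, 1.53-fold and 1.34-fold lower. Nidogen-2, which links laminin to collagen IV, is encoded by Nid2, which fell 1.42-fold in Mbd3abc KO. Nid1 rose 1.28-fold in Mbd3cΔN-ab KO. Sparc, which encodes a protein that binds collagen IV, had 1018 and 616 normalized reads in Mbd3abc KO against 1488 and 1410 in E14 WT, 1.77-fold lower.

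Genes of the Fraser complex and of a matricellular protein also fell. Frem2 had 161 and 173 normalized reads in Mbd3ab KO against 474 and 636 in E14 WT, 3.32-fold lower. Mbd3abc KO libraries held 66.7 and 99.2 normalized reads against 552 and 732, and Mbd3cΔN-ab KO libraries held 84.2 and 123.7 against 524 and 700.0. Its partner Fras1 was 3.54-fold lower in Mbd3abc KO and 3.53-fold lower in Mbd3cΔN-ab KO. Smoc1, which encodes a calcium-binding protein of basement membranes, was 1.85-fold, 4.91-fold and 2.52-fold lower in Mbd3ab KO, Mbd3abc KO and Mbd3cΔN-ab KO. Frem2 and Smoc1 thus fell in each of the 3 lines in which the pair was high.

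A smaller group rose beside the pair. Lamb3, which encodes a chain of the laminin of epithelial anchorage, had 174 and 81.3 normalized reads in Mbd3ab KO against 13.3 and 20.6 in E14 WT, 133 and 65.8 against 15.4 and 23.7 in the Mbd3abc KO table, and 174 and 33.0 against 14.7 and 22.6 in the Mbd3cΔN-ab KO table. As with the pair, the first mutant library was the higher in each line. Lamb3 was also the 1 gene of this group listed for Mbd3c KO, where the authors' DESeq2 log2 fold change was 1.92 ± 0.42 (SE; adjusted p = 0.0031). Col7a1, whose collagen forms anchoring fibrils, rose 2.93-fold, 3.37-fold and 1.92-fold in Mbd3ab KO, Mbd3abc KO and Mbd3cΔN-ab KO. Npnt, which encodes the integrin ligand nephronectin, rose 5.92-fold in Mbd3abc KO and 3.01-fold in Mbd3cΔN-ab KO. Transcript GC content lay between 51.8% and 60.9% for the basement membrane genes that fell in Mbd3abc KO and between 50.2% and 61.5% for those that rose, and its part in these changes was not tested. The other collagen IV chains, encoded by Col4a3, Col4a4, Col4a5 and Col4a6, were not listed in any table.

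**Figure D5:**
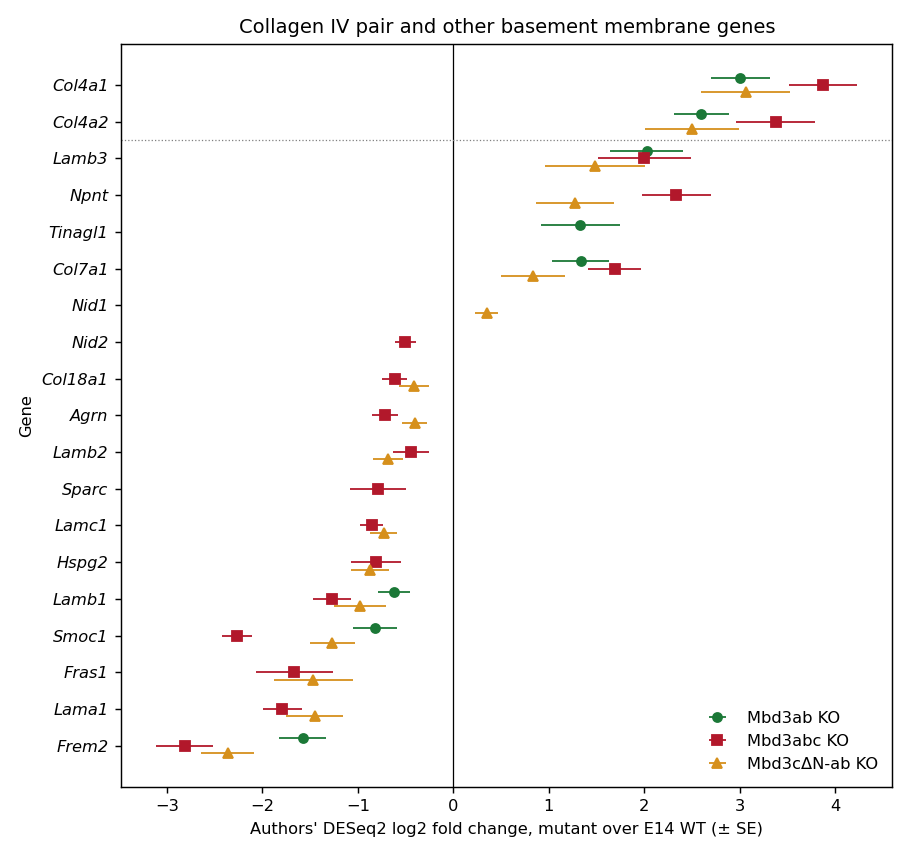
The authors' DESeq2 log2 fold change, mutant over E14 WT, with its SE, for the pair (top) and other basement membrane genes called in Mbd3ab KO (circles), Mbd3abc KO (squares) or Mbd3cΔN-ab KO (triangles). The pair lies at 2.50 to 3.88, while laminin-111 genes lie at -1.79 to -0.62 and Frem2 at -2.81 to -1.58.

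Genes for the folding and export of collagen changed in both directions. Of 32 genes, 18 were called in Mbd3abc KO, 6 higher and 12 lower, and 12 in Mbd3cΔN-ab KO, 5 higher and 7 lower. These were 56.2% and 37.5% of the list, against 52.1% and 41.5% of all genes tested. None was listed in Mbd3ab KO, where only 3.35% of all genes tested were called. P4ha2, a catalytic subunit of prolyl 4-hydroxylase, had 50.3 and 32.4 normalized reads in Mbd3abc KO against 112 and 140 in E14 WT, and P4ha1 was 2.28-fold lower there. Neither has a value in the Mbd3cΔN-ab KO table. Their shared partner P4hb fell 1.52-fold in Mbd3abc KO and 1.56-fold in Mbd3cΔN-ab KO. Plod1 and Plod3, lysyl hydroxylases, fell 2.38-fold and 2.08-fold in Mbd3abc KO and 1.71-fold and 1.88-fold in Mbd3cΔN-ab KO. Serpinh1, which encodes the collagen chaperone Hsp47, had 114 and 97.3 normalized reads in Mbd3abc KO against 200 and 181 in E14 WT, and 78.2 and 113 in Mbd3cΔN-ab KO against 189 and 173. The prolyl 3-hydroxylation genes Crtap and Lepre1 fell in both lines, Crtap by 2.51-fold and 1.78-fold.

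Plod2, a further lysyl hydroxylase gene, had 1346 and 849 normalized reads in Mbd3abc KO against 301 and 308 in E14 WT, 3.60-fold higher. It was 2.60-fold higher in Mbd3cΔN-ab KO, at 776 and 725 normalized reads against 285 and 293. Cul3, the ubiquitin ligase scaffold that enlarges COPII coats for collagen, rose 4.83-fold and 2.87-fold in these lines, and the coat gene Sec23a 2.18-fold and 2.07-fold. Mia3 and Ctage5, whose products carry collagen to the coat, rose 1.83-fold and 2.87-fold in Mbd3abc KO and 1.42-fold and 1.78-fold in Mbd3cΔN-ab KO. The outer coat genes Sec13 and Sec31a fell in Mbd3abc KO, 1.75-fold and 1.25-fold. Loxl4, a lysyl oxidase that crosslinks matrix, rose 4.12-fold in Mbd3abc KO. Transcript GC content was 38.5% for Cul3, 42.4% for Sec23a, 43.1% for Plod2 and 45.8% for Mia3, all of which rose, and 59.1% for Loxl4. Among the genes of this list that fell in Mbd3abc KO it was 45.7% for P4ha1, 52.3% for Sec13 and 58.6% for Leprel4. Its part in these changes was not tested.

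Receptors for basement membranes changed in both directions. Of 18 receptor genes 3 were called in Mbd3ab KO, all higher, while 5 rose and 4 fell in Mbd3abc KO, and 4 rose and 6 fell in Mbd3cΔN-ab KO. The called shares were 16.7%, 50% and 55.6% of the list, against 3.35%, 52.1% and 41.5% of all genes tested. Among the 3 in Mbd3ab KO the direction of Bcam turned with median ratio scaling over the listed genes, which shifted all log2 fold changes by -0.84. Ddr1, a receptor tyrosine kinase that binds collagen IV, had 129 and 121 normalized reads in Mbd3abc KO against 717 and 664 in E14 WT, 5.53-fold lower. It had 232 and 261 in Mbd3cΔN-ab KO against 681 and 635, 2.67-fold lower. Itga1, the α chain of a collagen IV integrin, had 7.22 and 22.0 normalized reads in Mbd3cΔN-ab KO against 56.2 and 41.3 in E14 WT. Its β partner Itgb1 rose 2.39-fold in Mbd3abc KO and 1.42-fold in Mbd3cΔN-ab KO. Integrin αv, encoded by Itgav, rose 2.99-fold and 2.17-fold, and the laminin receptor chain gene Itga6 1.62-fold and 1.64-fold, while the laminin receptor chain gene Itga3 fell 2.25-fold and 1.51-fold. Sdc4, a heparan sulfate coreceptor, rose in all 3 lines, 2.64-fold in Mbd3ab KO, 2.71-fold in Mbd3abc KO and 2.33-fold in Mbd3cΔN-ab KO. Itgb4, the β chain of the hemidesmosome integrin, rose 2.78-fold in Mbd3ab KO and 2.28-fold in Mbd3abc KO.

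Among 22 matrix proteases and inhibitors, 1 rose and 1 fell in Mbd3ab KO, 4 rose and 3 fell in Mbd3abc KO, and 3 rose and 3 fell in Mbd3cΔN-ab KO. These were 9.09%, 31.8% and 27.3% of the list, against 3.35%, 52.1% and 41.5% of all genes tested. Mmp2, a gelatinase that cuts collagen IV, had 229 and 288 normalized reads in Mbd3ab KO against 124 and 148 in E14 WT, and 268 and 420 in Mbd3abc KO against 144 and 170. The protease inhibitor gene Timp1 was lower, with 39.6 and 32.4 normalized reads in Mbd3abc KO against 109 and 108 in E14 WT, and was 2.08-fold lower in Mbd3cΔN-ab KO. Serpine2, which encodes an inhibitor of serine proteases, rose 4.52-fold in Mbd3abc KO and 2.59-fold in Mbd3cΔN-ab KO. The lysosomal protease gene Ctsl rose 3.03-fold and 1.79-fold in the same lines.

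Of 33 genes of other collagens, 3 were called in Mbd3ab KO, all higher. In Mbd3abc KO 4 rose and 5 fell, and in Mbd3cΔN-ab KO 4 rose and 4 fell. The called shares of the list were 9.09%, 27.3% and 24.2%, against the same 3.35%, 52.1% and 41.5%. Col9a3, a chain of a cartilage collagen, had 198 and 81.3 normalized reads in Mbd3ab KO against 16.6 and 18.4 in E14 WT, 7.97-fold higher, and rose 6.03-fold and 7.39-fold in Mbd3abc KO and Mbd3cΔN-ab KO. Col17a1, the transmembrane collagen of hemidesmosomes, rose 4.11-fold, 4.86-fold and 3.80-fold in the 3 lines. Col11a1 had 344 and 123 normalized reads in Mbd3abc KO against 25.7 and 38.3 in E14 WT, 7.29-fold higher. The fibrillar collagen genes Col1a1 and Col2a1 fell in Mbd3abc KO, 1.87-fold and 4.16-fold, and in Mbd3cΔN-ab KO, 2.57-fold and 3.35-fold. Collagen genes other than the pair thus moved in both directions in these 2 lines. Over all 6 lists together, without the pair, 14 of 138 genes were called in Mbd3ab KO (10 higher), 59 in Mbd3abc KO (23 higher) and 51 in Mbd3cΔN-ab KO (21 higher), which is 10.1%, 42.8% and 37.0% of them, against 3.35%, 52.1% and 41.5% of all genes tested. The median log2 fold changes of those called were 1.12, -0.60 and -0.58, against 0.88, 0.46 and 0.37 over all called genes. The contrast of Mbd3abc KO with Mbd3cΔN-ab KO could fit only the 41 of these genes listed for both lines with the same transcript, and edgeR called 0 of them. Over all 5413 genes fitted 1308 had an unadjusted p under 0.05 by edgeR, while limma called 9 genes and DESeq2 344.

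Markers of other cell types that make collagen IV gave mixed counts. Of 23 primitive and parietal endoderm markers, 1 rose and 1 fell in Mbd3ab KO, 2 rose and 4 fell in Mbd3abc KO, and 1 rose and 4 fell in Mbd3cΔN-ab KO, or 8.70%, 26.1% and 21.7% called, against 3.35%, 52.1% and 41.5% of all genes tested. The defining transcription factor genes Gata4, Gata6, Sox7 and Sox17 were not listed in any of these tables. The summed level of the listed endoderm markers was 7643 and 7711 normalized reads in Mbd3abc KO against 16451 and 15717 in E14 WT, and 7558 and 8162 in Mbd3cΔN-ab KO against 15141 and 14682. In Mbd3ab KO it was 1835 and 1752 against 2798 and 2585. Much of each sum was laminin-111, and Amn, of the visceral endoderm, rose in all 3 lines, to 76.8 and 96.4 normalized reads in Mbd3ab KO against 17.7 and 18.4 in E14 WT. Of 11 endothelial markers, 1 rose in Mbd3ab KO, 2 rose and 2 fell in Mbd3abc KO and 1 rose in Mbd3cΔN-ab KO. The called shares were 9.09%, 36.4% and 9.09%, against 3.35%, 52.1% and 41.5% of all genes tested. The angiopoietin receptor gene Tek was the one that rose in all 3. The summed level of the listed endothelial markers was 312 and 179 normalized reads in Mbd3ab KO against 114 and 101 in E14 WT, 1220 and 802 in Mbd3abc KO against 910 and 826, and 402 and 180 in Mbd3cΔN-ab KO against 126 and 111. Each sum covers the markers that its table lists, which differ between tables. Cdh5 and Kdr, which define endothelium, were not listed. Of 15 fibroblast markers none was listed in Mbd3ab KO, 2 rose and 1 fell in Mbd3abc KO, and 1 rose and 2 fell in Mbd3cΔN-ab KO. The called share was 20% in Mbd3abc KO and 20% in Mbd3cΔN-ab KO, against 52.1% and 41.5% of all genes tested. Sums of the listed fibroblast markers were 758 and 723 normalized reads in Mbd3abc KO against 278 and 281 in E14 WT, and 340.5 and 386 in Mbd3cΔN-ab KO against 227 and 207, mostly Thy1.

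Of 13 trophectoderm markers, 4 rose and 1 fell in Mbd3ab KO, 5 rose and 1 fell in Mbd3abc KO, and 4 rose and 2 fell in Mbd3cΔN-ab KO. The called shares were 38.5%, 46.2% and 46.2%, against 3.35%, 52.1% and 41.5% of all genes tested. Those that fell were Tfap2c in Mbd3ab KO and Mbd3cΔN-ab KO (deposited log2 fold changes of -1.02 and -1.70), Ascl2 in Mbd3abc KO (-2.14) and Hand1 in Mbd3cΔN-ab KO (-1.46). Eomes had 156 and 151 normalized reads in Mbd3ab KO against 67.4 and 53.2 in E14 WT, and 491 and 413 in Mbd3abc KO against 78.5 and 61.2. The keratin gene Krt8 had 314 and 214 in Mbd3ab KO against 69.6 and 110 in E14 WT. Summed levels of the listed markers were 1920 and 1876 normalized reads in Mbd3ab KO against 1576 and 1625 in E14 WT, 2326 and 1575 in Mbd3abc KO against 682 and 795, and 1587 and 1449 in Mbd3cΔN-ab KO against 1659 and 1687. These sums do not hold the same genes in each table, so they cannot be compared between lines. Tfap2c was in the sums of Mbd3ab KO and Mbd3cΔN-ab KO but not in that of Mbd3abc KO. In the Mbd3ab KO table it had 1026 and 979 normalized reads in E14 WT. Cdx2 and Elf5, which define trophectoderm, were not listed. Of 13 embryonic stem cell markers none was listed in Mbd3ab KO, 3 rose and 6 fell in Mbd3abc KO, and 1 rose and 5 fell in Mbd3cΔN-ab KO. The called shares were 69.2% in Mbd3abc KO and 46.2% in Mbd3cΔN-ab KO, against 52.1% and 41.5% of all genes tested. Pou5f1, the pluripotency factor gene, had 2816 and 4647 normalized reads in Mbd3abc KO against 10868 and 11648 in E14 WT, and 3973 and 6551 in Mbd3cΔN-ab KO against 10315 and 11133. In both lines the first mutant library had the lower Pou5f1 and the higher Col4a1. The other called markers of this list did not all share that order. In Mbd3abc KO Lin28a, Utf1, Tfcp2l1, Tdgf1 and Sox2 were also lower in the first library, while Esrrb, Fgf4 and Klf4 were higher there. The part of these cell types in the level of the pair was not tested.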

How the data were processed

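Reads were mapped and counted by the authors with TopHat2 and HOMER on mm10 and compared with DESeq2, per the submitters' processing notes. HOMER counted exon reads by strand with transcripts condensed to genes, per the file headers. The settings and versions are not stated in the sources. The 4 deposited tables hold a normalized signal per library, and the authors' log2 fold change with SE, p-value and adjusted p-value. A deposited score column, the Wald statistic, was not used. All signal values in the 3 tables that list the pair were whole multiples of 1 step per library (100%, within 0.05 reads), so reads were recovered, and size factors from the deposited mean level. Levels are reads over size factors, comparable within a table, as mean ± SD of 2 libraries. Columns were matched to groups, not to replicate numbers. The number of genes tested was recovered from p and adjusted p.

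The authors' DESeq2 calls at an adjusted p of 0.05 are the main results. Mbd3abc KO was set against Mbd3cΔN-ab KO with edgeR 4.0.16 on recovered reads (TMM, no filter). Alternatives used edgeR, limma 3.58.1, DESeq2 1.42.0 (R 4.3.3), other scalings, a minimum of 10 reads and leaving out each library. Another took off the median of called genes of like GC content. Refits take the spread from listed genes only and were tested on simulated data. The members and lists were chosen with earlier results of these data known. Named list genes are up to 4 called genes per list and table with the largest change and a mean level of at least 20. Some are not reported here. Others, such as the genes of laminin-111, were chosen after their values were seen. The p-values measure the spread between these libraries. The labels call them biological replicates, without saying if those of a mutant stem from separate clones.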

Additional observations from a re-analysis of the deposited data

Results flagged for a closer look

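Bcam, which encodes a receptor for laminin, moved one way in one line and the other way in another. It had 2147 and 2323 normalized reads in Mbd3ab KO against 1426 and 1395 in E14 WT, with a deposited DESeq2 log2 fold change of 0.64. It had 1314 and 1175 normalized reads in Mbd3cΔN-ab KO against 1577 and 1535 in E14 WT, with a deposited log2 fold change of -0.32. Both libraries of each line moved with their line, and the difference between the lines was not tested. Scaling by the median ratio over the listed genes turned the direction in Mbd3ab KO. Called genes there had a median log2 fold change of 0.88, and that scaling shifted all values by -0.84. A gene at 0.64 had to turn under it, so the turn does not bear on the direction of Bcam.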

How the results depend on the processing

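Both chains were higher than wild type in all 90 alternatives run on the 3 mutants. This direction could hardly turn, because every mutant library stood at least 3.82-fold above both wild type libraries of its table. The Mbd3ab KO contrast had also chosen the pair. Mbd3abc KO calls held in every refit. In Mbd3ab KO edgeR and limma refits, adjusted over the 13201 genes tested, lost both calls (adjusted p between 0.0673 and 0.0796, 0 of 443 genes called). There Col4a2 was 3.01 by edgeR, 2.99 and 3.01 by limma with 1 or 0.5 added, 2.98 with equal totals and 2.07 with median ratio scaling (log2). Less the median of called genes of like GC content, Col4a1 and Col4a2 were 2.06 and 1.79 in Mbd3ab KO and 4.90 and 4.64 in Mbd3abc KO. Genes not called are missing from these medians. In Mbd3ab KO the medians were 0.95 and 0.81, near the 0.88 of all called genes, so this step does not isolate GC content there. Leaving out 1 library, log2 fold changes ranged over 2.87 to 3.91 and 2.44 to 3.09 (Mbd3ab KO), 3.56 to 4.48 and 2.95 to 4.04 (Mbd3abc KO), and 1.48 to 4.63 and 1.25 to 4.07 (Mbd3cΔN-ab KO). Between Mbd3abc KO and Mbd3cΔN-ab KO they ranged from -0.64 to 1.33 and -0.60 to 1.61, negative without the first Mbd3abc KO library (-0.53 and -0.55) or the second Mbd3cΔN-ab KO library (-0.64 and -0.60), and called genes from 0 to 27. That contrast called 10 genes, against 344 with DESeq2 and 361 with the wild type libraries in the fit. Of the 4 list genes lower in Mbd3ab KO 1 was left at an adjusted p of 0.01 and 1 at 2-fold change. At 2-fold change Mbd3abc KO had 18 of 36 lower genes left. Mbd3cΔN-ab KO had 13 of 30 lower genes left, and of 21 higher genes 13 at 0.01 and 12 at 2-fold change. Median ratio scaling over the listed genes shifted all log2 fold changes by -0.84 in Mbd3ab KO, -0.24 in Mbd3abc KO and -0.19 in Mbd3cΔN-ab KO, and TMM by -0.33 in Mbd3ab KO. Bcam in Mbd3ab KO was the only called list gene whose direction another scaling turned. The causes were not tested. No paired analysis was possible because the columns carry no replicate numbers. Col4a2 had 41 and 88 reads in wild type, which limits the precision of its fold changes.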
